A study of Mus musculus with 16 samples.

Results

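The Ugt1a locus is the stretch of mouse chromosome 1 that encodes the UDP-glucuronosyltransferases of the 1A family. Its members were taken as the rows of the gene count table whose symbol was Ugt1a1, Ugt1a2, Ugt1a5, Ugt1a6a, Ugt1a6b, Ugt1a7c, Ugt1a8, Ugt1a9 or Ugt1a10, with their transcripts. This gave 9 of the 57186 genes and 18 of the 149194 transcripts in the tables. The locus was selected on measured values of these same kidneys, so the members' values are given as a description, without p-values, and the counts of members past a threshold are read only beside the share of all genes past it.

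The data were total RNA sequencing libraries of 16 kidneys, with 4 mice in each of 4 groups. All mice, controls included, were male Elmo1H/H animals on the C57BL/6J background, which carry a raised level of the engulfment gene Elmo1, and were 16 weeks old at collection. The non-diabetic groups were Elmo1H/HIns2+/+, untreated (ND_C) or given vitamin B12 (ND_B12), and the diabetic groups were Elmo1H/HIns2Akita/+, untreated (D_C) or given B12 (D_B12). Ins2Akita is a germline mutation of an insulin gene that causes loss of beta cells and insulin deficiency from a young age, so the model is one of insulin-deficient and not of insulin-resistant diabetes. B12 was given in the drinking water at 10 mg per kg body weight per day from 8 weeks of age. The treatment lasted 8 weeks by the study's methods and 16 weeks by the sample labels. Library totals ran from 65271308 to 91771136 estimated counts. Values below are normalized counts, that is, estimated counts divided by the relative size of each library.

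Glucuronidation joins glucuronic acid, carried by UDP-glucuronic acid, to bilirubin, hormones, phenols and drugs, which makes them soluble enough to be excreted in bile and urine. The Ugt1a locus makes several enzymes from a single set of shared exons. Each member has its own promoter and its own first exon, which encodes the part of the enzyme that binds the substrate, and that first exon is spliced to exons that encode the part that binds UDP-glucuronic acid. Ugt1a1 is the enzyme that conjugates bilirubin. Ugt1a6a and Ugt1a6b act on small planar phenols, and Ugt1a7c, Ugt1a8, Ugt1a9 and Ugt1a10 form a cluster of related first exons that act on a wide range of phenolic compounds. Ugt1a2 and Ugt1a5 lie between these and Ugt1a1 and are less well described. The locus is known as a target of ligand-activated and stress-activated factors such as AhR, CAR, PPARalpha and Nrf2. In kidney its enzymes are known mainly from the proximal tubule.

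On GRCm39 the locus covered chromosome 1 from 87983110 to 88147724 on the plus strand (164.6 kb). From the upstream end, the coding first exons lay in the order Ugt1a10, Ugt1a9, Ugt1a8, Ugt1a7c, Ugt1a6b, Ugt1a6a, Ugt1a5, Ugt1a2 and Ugt1a1. All 9 members shared exon 2 (88142766 to 88142897, 132 bases), exon 3 (88143517 to 88143604, 88 bases), exon 4 (88143860 to 88144079, 220 bases) and exon 5, which began at 88145849 and held 295 coding bases before its untranslated end. The junction between the first exon and exon 2 of each member is printed here because the first exon tells the members apart. The last 20 bases of the coding first exon are in lower case and the first 20 bases of the shared exon 2, from 88142766 to 88142785, are in capitals.
Ugt1a10 (first exon part 87984039 to 87984058): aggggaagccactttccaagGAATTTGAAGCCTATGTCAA
Ugt1a9 (87999381 to 87999400): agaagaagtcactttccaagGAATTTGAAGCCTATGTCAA
Ugt1a8 (88016424 to 88016443): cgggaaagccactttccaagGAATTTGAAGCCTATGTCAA
Ugt1a7c (88023681 to 88023700): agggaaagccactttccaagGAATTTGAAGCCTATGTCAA
Ugt1a6b (88035502 to 88035521): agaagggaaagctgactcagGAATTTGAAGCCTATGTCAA
Ugt1a6a (88067034 to 88067053): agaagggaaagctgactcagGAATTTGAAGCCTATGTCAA
Ugt1a5 (88094606 to 88094625): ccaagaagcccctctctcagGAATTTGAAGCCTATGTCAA
Ugt1a2 (88129203 to 88129222): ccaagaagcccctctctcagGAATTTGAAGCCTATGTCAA
Ugt1a1 (88140574 to 88140593): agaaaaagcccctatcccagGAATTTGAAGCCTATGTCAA

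These 9 junctions held 7 distinct sequences. Ugt1a6a and Ugt1a6b had the same 20 bases before the junction, and so did Ugt1a2 and Ugt1a5. Over the whole coding first exon, Ugt1a6a and Ugt1a6b were 97.0% identical, and 47.3% of the windows of 50 bases (the read length) in one were found unchanged in the other. Ugt1a9 and Ugt1a10 were 91.3% identical (6.3% of windows shared) and Ugt1a2 and Ugt1a5 were 81.4% identical (8.2% shared). The division of counts within these pairs, above all between Ugt1a6a and Ugt1a6b, is therefore uncertain. In exon 5, Ugt1a10 is annotated (GENCODE vM39) to end at 88146726 and the other members at 88147724. Reads from exons 2 to 5 could belong to any member, those past 88146726 to any but Ugt1a10, and StringTie divided them among the transcripts. The sum over the 9 members does not depend on that division and is given beside them as the locus sum. A long non-coding RNA on the opposite strand, Gm20528, overlaps the locus with 15 to 43 counts per library, and the strand setting of the counting is not given in the sources used here.

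Promoters of 8 of the 9 members were found in RefSeq (GRCm38.p6), Ugt1a6b being the member without an entry. The 250 bases before each start were searched on both strands for GCGTG, the core of the xenobiotic response element bound by AhR with its partner, which 28.16% of 32851 mouse promoters held. Ugt1a8 held it 70 to 66 bases before its start and Ugt1a5 held it 49 to 45 bases before its start, and the other 6 did not. Both windows are printed because Ugt1a8 was the member that varied least between groups and Ugt1a5 one of those that varied most. The capitals mark the motif, which reads as its reverse complement in Ugt1a8.
Ugt1a8 (chr1:88087578-88087827, plus strand, GRCm38.p6): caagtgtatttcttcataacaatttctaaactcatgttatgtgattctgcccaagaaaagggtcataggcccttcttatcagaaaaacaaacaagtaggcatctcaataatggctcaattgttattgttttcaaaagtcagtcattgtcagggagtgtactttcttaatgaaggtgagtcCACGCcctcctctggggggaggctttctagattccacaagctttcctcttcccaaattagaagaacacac
Ugt1a5 (chr1:88165762-88166011, plus strand, GRCm38.p6): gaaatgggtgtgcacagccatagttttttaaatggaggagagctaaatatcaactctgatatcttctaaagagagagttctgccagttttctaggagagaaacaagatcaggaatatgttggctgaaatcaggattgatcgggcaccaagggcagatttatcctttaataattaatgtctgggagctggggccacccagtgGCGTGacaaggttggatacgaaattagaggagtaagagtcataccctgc

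The antioxidant response element core (TGAC, any 3 bases, GC, in 10.16% of all promoters), the E-box CACGTG (6.02%) and the longer PPAR motif (0.03%), searched in the same way, were in 0 of the 8 windows. An absent match says only that these letters are not in these 250 bases.

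Some facts about the libraries bear on every value below. The library labelled D_C 1 resembled the non-diabetic libraries at most members and the library labelled ND_B12 4 resembled the diabetic ones. Independently of the locus, a table of group means in the study's supplement was matched to all 1820 sets of 4 libraries by 180 other genes, and each group in it matched a set that differed from the labelled one. The median absolute log2 difference was 0.00019 to 0.000269 for the matched sets and 0.0348 to 0.0536 for the next best. For the labelled sets it was 0.0463 to 0.307, the latter in both diabetic groups. In that match D_C 1 stood among treated non-diabetic kidneys, ND_B12 4 among treated diabetic kidneys with D_C 2, 3 and 4, and the 4 libraries labelled D_B12 were the untreated diabetic group. ND_B12 1 stood among the untreated and ND_C 3 among the treated non-diabetic kidneys, so every B12 value in non-diabetic kidneys and the ND_C baseline rest on the labels too. The groups are kept here as labelled, the members' diabetes results are also given without D_C 1 and ND_B12 4, and the direction of a B12 difference between diabetic groups would be the opposite under the other assignment. Under that assignment the diabetes results in untreated and in B12-treated kidneys, and the interaction, would also rest on other libraries. The dates in the library names followed the groups, from day 0 (the earliest ND_C library) to day 111 (the latest D_B12 library), and no date held both D_C and D_B12. All non-diabetic libraries were dated day 0 to 21 and all diabetic libraries but D_C 1 (day 21) day 28 to 111. Date cannot be told apart from treatment of the diabetic mice, nor, once D_C 1 is left out, from diabetes.

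Ugt1a7c supplied most of the Ugt1a RNA of these kidneys. Per kb of transcript its mean level was 14945 ± 203 normalized counts in untreated and 17126 ± 1782 in treated non-diabetic kidneys, and 16529 ± 1890 and 16561 ± 1854 in diabetic ones (SD, n = 4). The lowest library of Ugt1a7c (13868 per kb) was above the highest library of any other member (5226 per kb, Ugt1a10 in D_C 2). In ND_C, Ugt1a6a (441 ± 75.9 per kb) and Ugt1a6b (281 ± 20.9) followed, and the libraries of these 3 members did not overlap. Below them Ugt1a10 (176 ± 73.3), Ugt1a8 (158 ± 43.5) and Ugt1a9 (139 ± 25.4) overlapped, and Ugt1a5 (52.5 ± 7.96), Ugt1a1 (51.8 ± 33.5) and Ugt1a2 (40.5 ± 1.72) overlapped at the bottom. Ugt1a10, which overlapped Ugt1a6b in ND_C, had the second highest mean in the other 3 groups, where its libraries overlapped those of Ugt1a6a. Ugt1a10-201 is annotated as shorter (2244 bases) than Ugt1a6a-201 (3270 bases), and this order depends in part on that length. With all transcripts cut at a common end, Ugt1a10 held 2.10% of the locus in ND_B12, against 2.25% for Ugt1a6a. In ND_C it held 0.76%, against 0.99% for Ugt1a8 and 0.86% for Ugt1a9. Ugt1a10 still exceeded Ugt1a6a in D_C (6.11% against 2.85%) and in D_B12 (4.45% against 3.24%). In D_C every member from Ugt1a10 down overlapped its neighbour.

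**Figure D1:**
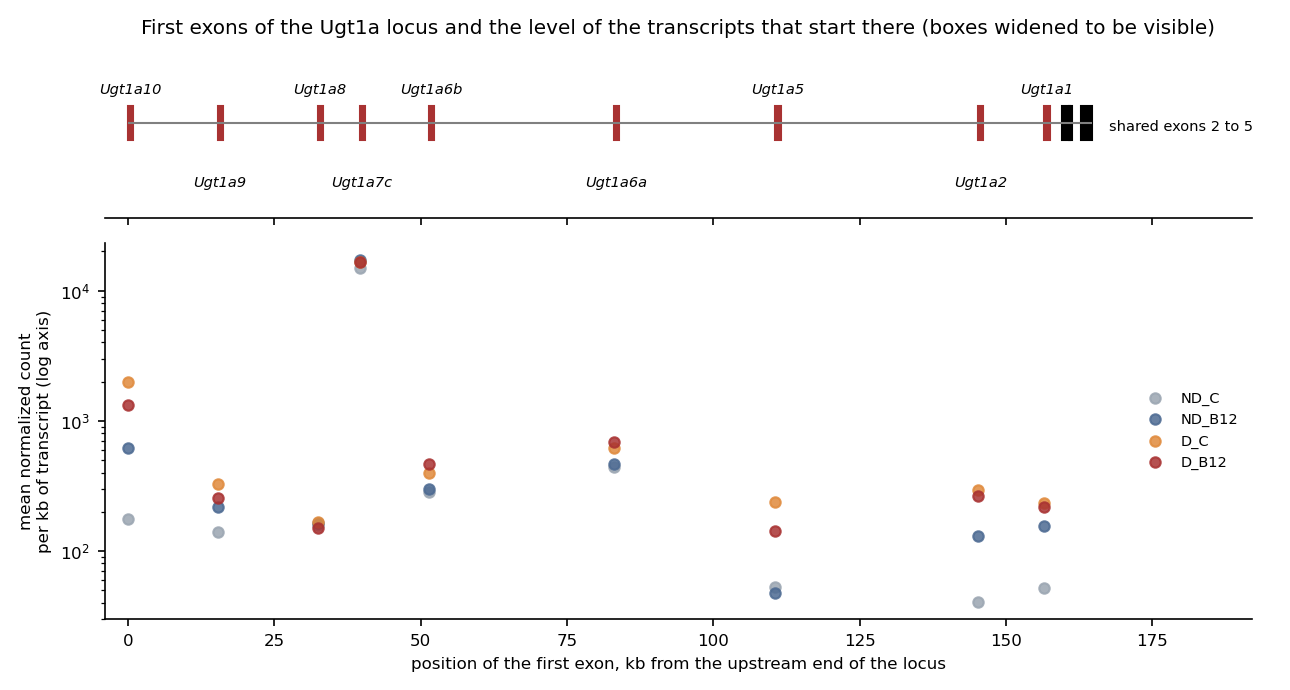
The upper panel draws the 9 first exons (red) and the shared exons (black) along the locus, as boxes widened to be visible, and the lower panel plots the mean normalized count per kb of transcript in each group (n = 4, log axis) at the position of each first exon, in kb from the upstream end. Ugt1a7c lies above all other members in all 4 groups, and the groups lie apart at Ugt1a10, Ugt1a5, Ugt1a2 and Ugt1a1 but close together at Ugt1a8.

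Ugt1a10 had the widest range of the members. Its normalized counts were 279.5, 233, 459 and 594 in untreated and 550.3, 719.6, 907 and 3231 in B12-treated non-diabetic kidneys. They were 726, 10953, 2515 and 2568 in untreated and 1471, 1526, 6373 and 2022 in B12-treated diabetic kidneys. The highest library was 47.1 times the lowest. ND_B12 4 was the only non-diabetic library above the lowest D_B12 library, and D_C 1 was the only diabetic library below the highest of the other 7 non-diabetic libraries. The fitted log2 fold change for diabetes was 3.42 ± 0.80 (SE) in untreated kidneys and 1.07 ± 0.73 in B12-treated kidneys, and without D_C 1 and ND_B12 4 these were 3.77 ± 0.62 and 1.98 ± 0.62. Without D_C 2, the highest library, the value in untreated kidneys was 2.30 ± 0.66 and was not called.

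Ugt1a2 was at 124, 131, 137 and 129 in ND_C and at 269, 78.4, 215 and 1118 in ND_B12. In D_C it was at 231, 1675, 1022 and 819 and in D_B12 at 777, 881, 1062 and 704. The 4 ND_C libraries were nearly equal (4.3% coefficient of variation), and 7 of the 8 diabetic libraries were above 700. Its log2 fold change for diabetes was 2.85 ± 0.65 in untreated and 1.02 ± 0.60 in B12-treated kidneys, and 3.17 ± 0.32 and 2.2 ± 0.33 without the 2 libraries.

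Ugt1a5, which shares its last 20 first-exon bases with Ugt1a2, was at 168, 177, 198 and 136 in ND_C and at 186, 130.0, 182 and 116 in ND_B12. It was at 171, 946, 1639 and 329 in D_C and at 548, 577, 585 and 143 in D_B12. Unlike Ugt1a2, it was not high in ND_B12 4, which had the lowest value of all 16 libraries, and it was also low in D_B12 4. A total of 6 of the 8 diabetic libraries lay above every non-diabetic library. The log2 fold change for diabetes was 2.19 ± 0.55 in untreated and 1.60 ± 0.55 in B12-treated kidneys, and 2.52 ± 0.47 and 1.49 ± 0.49 without the 2 libraries. Without D_C 3, the highest library, it was 1.49 ± 0.49 in untreated kidneys.

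Ugt1a1, the bilirubin enzyme, was at 326, 133, 84.95 and 125 in ND_C and at 341, 61.5, 614 and 987 in ND_B12. It was at 277, 1380.3, 844 and 503 in D_C and at 616, 668, 907 and 630.4 in D_B12. The D_B12 libraries were close together, whereas ND_B12 ranged from the lowest library of the series (61.5) to 987. The log2 fold change for diabetes was 2.17 ± 0.63 in untreated and 0.49 ± 0.60 in B12-treated kidneys, and 2.44 ± 0.58 and 1.07 ± 0.58 without the 2 libraries.

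Ugt1a6a, one of the phenol enzymes, was at 1521, 1095, 1642 and 1547 in ND_C and at 1349, 1288, 1300.0 and 2188 in ND_B12. It was at 1203, 2670, 2260 and 2043 in D_C and at 1968, 2248, 2810.0 and 2014 in D_B12. Ugt1a6b was at 838, 902, 1007 and 937 in untreated and at 719, 931, 974 and 1308 in treated non-diabetic kidneys. It was at 745, 1238, 1741 and 1449 in untreated and at 1269.9, 1499, 1784 and 1568 in treated diabetic kidneys. Both had small and similar differences. The log2 fold changes for diabetes were 0.49 ± 0.22 and 0.49 ± 0.21 in untreated kidneys and 0.56 ± 0.22 and 0.63 ± 0.21 in B12-treated kidneys for Ugt1a6a and Ugt1a6b. With both libraries left out they were each at 0.68 ± 0.14 in untreated kidneys, and they were at 0.79 ± 0.15 and 0.81 ± 0.14 in B12-treated kidneys. Without D_C 1 and ND_B12 4, all 7 diabetic libraries lay above all 7 non-diabetic libraries for both, as for 1.19% of all genes tested.

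Ugt1a9 was at 532, 348, 429 and 505 in untreated and at 649.6, 496, 633 and 1072 in treated non-diabetic kidneys. It was at 342, 1611, 1959.6 and 379.7 in untreated and at 828, 767, 1158 and 599 in treated diabetic kidneys. Its D_C libraries split into a high pair (D_C 2 and 3) and a low pair (D_C 1, the lowest of all 16 libraries, and D_C 4, within the ND_C range). Its first exon is the closest relative of that of Ugt1a10, but D_C 4 was high for Ugt1a10 and low for Ugt1a9. The log2 fold change for diabetes was 1.24 ± 0.46 in untreated and 0.23 ± 0.45 in B12-treated kidneys, and 1.54 ± 0.39 and 0.50 ± 0.39 without the 2 libraries.

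The most abundant member, Ugt1a7c, was within 47802 to 49032 in the 4 ND_C libraries (1.2% coefficient of variation). It was at 52402, 51679, 53823 and 64114 in ND_B12, at 45055, 58941, 56153 and 53813 in D_C, and at 48122, 56602, 60962 and 49360.0 in D_B12. D_C 1 was the lowest and ND_B12 4 the highest of all 16 libraries. The log2 fold change for diabetes was 0.14 ± 0.10 in untreated kidneys and -0.05 ± 0.10 in B12-treated kidneys, and 0.21 ± 0.07 and 0.03 ± 0.07 without the 2 libraries.

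Ugt1a8 had no separation between groups, with a range of 433 to 720.2 in untreated and 365 to 671 in treated non-diabetic kidneys, and of 424 to 670.1 and 360.1 to 679 in the diabetic ones. The fitted log2 fold changes for diabetes were 0.08 ± 0.23 and -0.13 ± 0.23. Without D_C 1 and ND_B12 4 they were 0.16 ± 0.24 and 0.01 ± 0.25. Its first exon lies between those of Ugt1a9 and Ugt1a7c and is 84.1% identical to the latter.

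**Figure D2:**
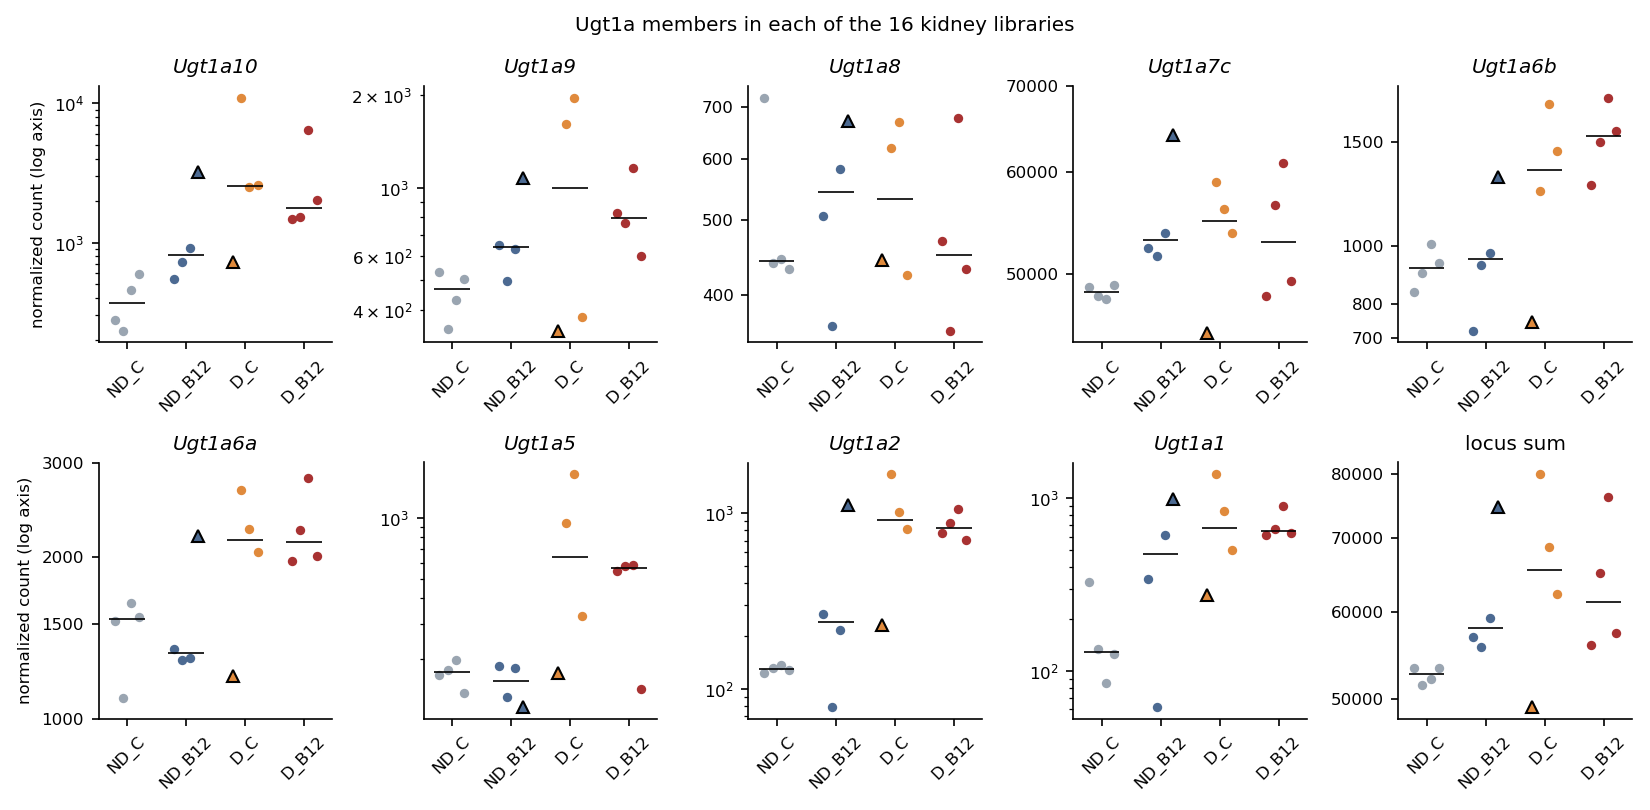
Each panel plots the normalized count (log axis) of a member, or of the sum over the 9 members, in the 16 libraries by group, with a line at the group median. Triangles mark D_C 1, which lies low among the diabetic libraries in most panels, and ND_B12 4, which lies high among the non-diabetic ones in every panel but Ugt1a8, where ND_C 1 is higher, and Ugt1a5, where it is lowest.

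Counts of members past the threshold (edgeR quasi-likelihood test, Benjamini-Hochberg adjusted p below 0.05 over all genes) followed the same division. In untreated kidneys, 2 of the 9 members were called higher with diabetes (Ugt1a10 and Ugt1a2), beside 0.937% of the 25408 genes tested, and 0 were called lower (0.728% of genes). Without D_C 1 and ND_B12 4, 7 members were called higher (all but Ugt1a7c and Ugt1a8), beside 4.68% of 24831 genes, and 0 lower (3.89%). The 2 calls in untreated kidneys became 0 with the library date as a covariate (0.00787% of genes called higher), with the replicate block (0.539%), without the count filter (0.0808%) and for transcript counts (0.0% of transcripts), and 4 with DESeq2 (4.52%). Leaving out D_C 1 alone gave 7 (3.22% of genes), and leaving out any 1 ND_C library, D_C 2, 3 or 4, or D_B12 2 gave 0 (0.0% to 0.788% of genes). In B12-treated kidneys, 0 members were called higher (0.26% of genes) or lower (0.563%). At an unadjusted p below 0.05 by edgeR, 3 members were higher (1980 of 25408 genes), and 1 was called by DESeq2 (2.19% of genes higher). Without the 2 libraries 3 were called higher (Ugt1a6a, Ugt1a6b and Ugt1a2) beside 1.12% of genes, and 0 lower (1.68%). Averaged over both treatments, 3 members were called higher (Ugt1a10, Ugt1a5 and Ugt1a2) beside 0.862% of genes, and 0 lower (2.16%). Without the 2 libraries these were 7 (4.86%) and 0 (5.34%). The median log2 fold change of the members was 1.24 in untreated and 0.56 in B12-treated kidneys, against -0.0034 and 0.0027 over all genes tested. Since the members share exons and reads, they are not independent of each other.

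With no threshold on variance, 0 members had all 8 diabetic libraries above all 8 non-diabetic libraries, as did 0.0551% of genes. Without D_C 1 and ND_B12 4 this held for 4 members (Ugt1a10, Ugt1a6b, Ugt1a6a and Ugt1a2) and for 1.19% of genes.

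**Figure D3:**
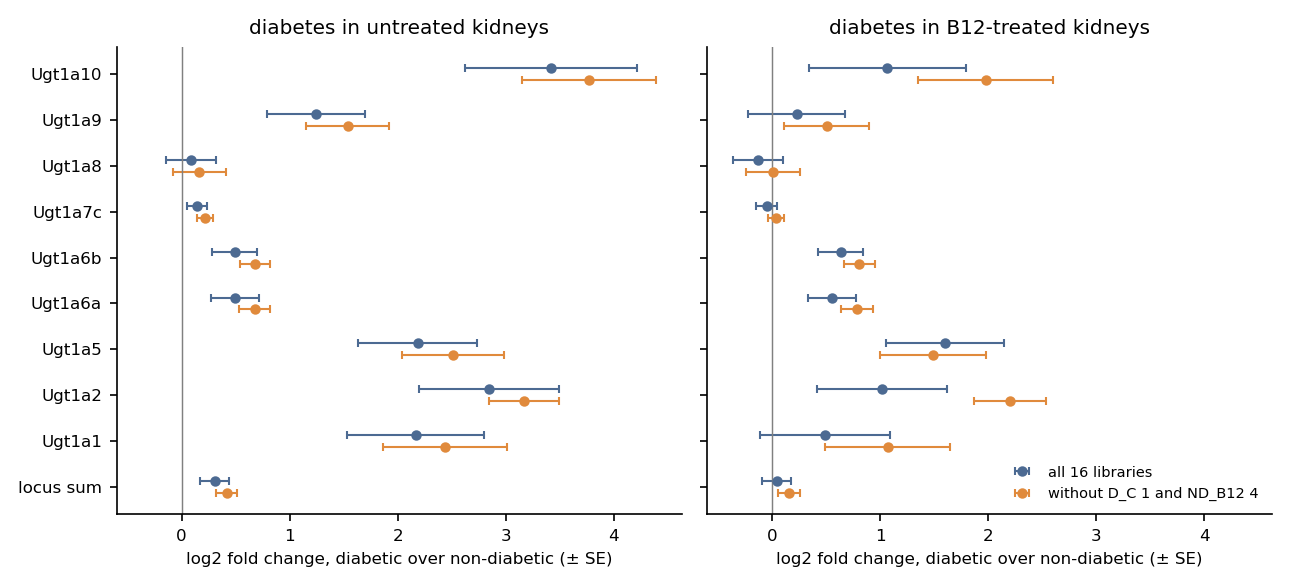
Points are log2 fold changes of diabetic over non-diabetic kidneys with their SE from the edgeR fit, for untreated (left) and B12-treated kidneys (right), with all 16 libraries (blue) and without D_C 1 and ND_B12 4 (orange). Ugt1a10, Ugt1a5, Ugt1a2 and Ugt1a1 lie above 2 in untreated kidneys, while Ugt1a7c, Ugt1a8 and the locus sum lie below 0.5 in both panels.

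The locus sum had smaller fold changes than most of its minor members, since Ugt1a7c makes up most of it. The locus sum was 52645 ± 905 in untreated and 61689 ± 8862 in treated non-diabetic kidneys, and 65090.0 ± 12878 and 63748 ± 9278 in diabetic ones (SD, n = 4). Its log2 fold change for diabetes was 0.31 ± 0.13 in untreated and 0.04 ± 0.13 in B12-treated kidneys, and 0.42 ± 0.10 and 0.16 ± 0.10 without the 2 libraries. Of the 12445 normalized counts by which the D_C mean exceeded the ND_C mean, Ugt1a7c held 40.5% and Ugt1a10 held 30.5%, although the ratio of the 2 means was 1.104 for Ugt1a7c and 10.7 for Ugt1a10. The D_B12 mean exceeded the ND_B12 mean by 2059, to which Ugt1a10 gave 72.7% and Ugt1a7c, lower in D_B12, -84.7%. Without ND_B12 4 these were 33.0% and 17.5%. In RNA of kidney tissue, a change in the number of cells of a type and a change in the RNA per cell cannot be told apart.

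The composition of the locus differed accordingly. Counted per length, the 8 members other than Ugt1a7c made up 8.62%, 6.85%, 8.79% and 8.62% of the locus in ND_C and 8.40%, 7.78%, 9.66% and 16.1% in ND_B12. They made up 9.00%, 31.5%, 19.8% and 15.3% in D_C and 15.2%, 14.1%, 23.5% and 15.4% in D_B12. The 7 non-diabetic libraries other than ND_B12 4 thus reached at most 9.66% and the 7 diabetic libraries other than D_C 1 at least 14.1%. The largest part of the difference was Ugt1a10, at 1.08% ± 0.44 of the locus in ND_C and 8.35% ± 7.77 in D_C (SD, n = 4), with 19.7% in D_C 2. Ugt1a6a was at 2.70% ± 0.45 in ND_C and 2.94% ± 0.37 in D_C, and Ugt1a8 at 0.97% ± 0.26 and 0.81% ± 0.14. The lengths were taken from GENCODE vM39 and the counts from vM35, in which several of these transcripts have an earlier version, so the shares are approximate. With all transcripts cut at a common end, Ugt1a10 was at 0.76% in ND_C and 6.11% in D_C, with 14.7% in D_C 2.

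**Figure D4:**
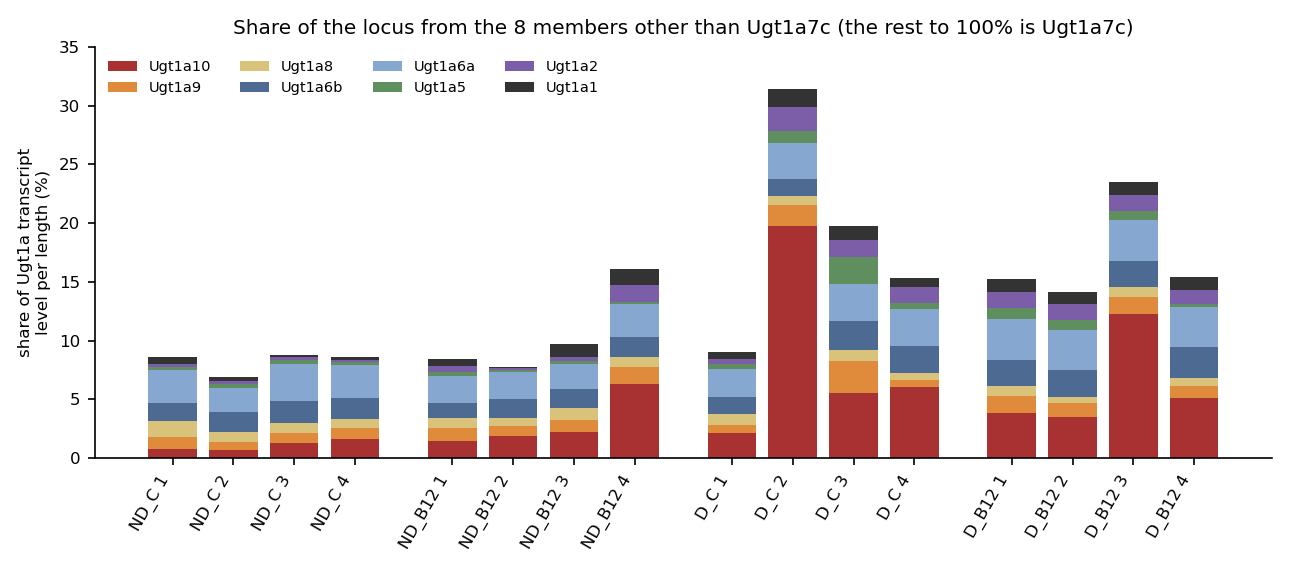
Bars give, for each library, the share (%) of the Ugt1a transcript level per length held by the 8 members other than Ugt1a7c, stacked by member. Bars of ND libraries other than ND_B12 4 end below 10%, bars of D libraries other than D_C 1 end above 14%, and Ugt1a10 (lowest segment) reaches 19.7% in D_C 2.

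The transcript table showed how the counts of a member were divided. Ugt1a7c-201 held 99.0% to 99.4% of the Ugt1a7c count and Ugt1a10-201 held at least 96.5% of the Ugt1a10 count. Ugt1a10-202, whose first exon ends early, at 87983386, had 0 to 385 estimated counts, with a mean of 1.86 ± 1.35 normalized counts in ND_C and 121 ± 164 in D_C. Ugt1a6a was divided among Ugt1a6a-201 (34.7% to 74.4%), Ugt1a6a-202, which starts further upstream (4.48% to 38.4%), and the retained-intron transcript Ugt1a6a-203 (16.5% to 36.5%). Ugt1a6b-201 held 53.7% to 91.96% of Ugt1a6b. Ugt1a7c-202, with 94 to 338 estimated counts, is counted under Ugt1a7c, but its coding sequence starts in the Ugt1a6a first exon (at 88066196).

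No member was called for B12. In non-diabetic kidneys 0 members were called in either direction by edgeR, as were 0.0% of genes, with or without the 2 libraries. DESeq2 called 0 members, beside 0.00788% of genes called higher. At an unadjusted p below 0.05 in the edgeR fit, 3 members were higher when all libraries were used, beside 933 of 25408 genes. Without the 2 libraries 0 members were, beside 587 of 24831 genes. Ugt1a10, Ugt1a2 and Ugt1a1 had the largest values, at log2 fold changes of 1.80 ± 0.76, 1.70 ± 0.63 and 1.59 ± 0.63, which were 0.89 ± 0.61, 0.52 ± 0.33 and 1.01 ± 0.58 without the 2 libraries. The ND_B12 libraries of Ugt1a7c (51679 to 64114) lay above its ND_C libraries (47802 to 49032), as did 2.65% of genes (3.81% without D_C 1 and ND_B12 4), at a log2 fold change of 0.20 ± 0.10.

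In diabetic kidneys, edgeR called 0 members and 0.0% of genes for B12. In the fit of all libraries 0 members had an unadjusted p below 0.05, beside 1636 genes higher and 1832 lower of 25408. DESeq2 called 0 members, beside 1.4% of genes called higher. The log2 fold changes of D_B12 over D_C ran from -0.73 ± 0.52 (Ugt1a5) to 0.24 ± 0.21 (Ugt1a6b). Without the 2 libraries 0.439% of genes were called higher and 0.431% lower, again with 0 members, and 8 of the 9 members had values below 0, from -1.06 ± 0.45 (Ugt1a5) to -0.03 ± 0.14 (Ugt1a6a). The interaction of diabetes and B12 gave 0 members and 0.0% of genes by edgeR. At an unadjusted p below 0.05 in that fit, 2 members had a lower value, beside 2059 of 25408 genes. DESeq2 called 0 members for the interaction, beside 2.1% of genes called higher. Without the 2 libraries edgeR called 0 members, beside 0.193% of genes higher and 0.157% lower. The interaction was -2.35 ± 1.04 for Ugt1a10, -1.83 ± 0.86 for Ugt1a2 and -1.68 ± 0.86 for Ugt1a1, and ND_B12 4 is part of each. Leaving out D_C 1 and ND_B12 4 gave -1.79 ± 0.83, -0.96 ± 0.44 and -1.37 ± 0.80. The 4 comparisons between groups share libraries and are not independent of each other.

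The levels of the members were positively correlated across the libraries. Over the 36 pairs of members, the Pearson correlation of log2 normalized counts over the 16 libraries ran from 0.178 (Ugt1a8 with Ugt1a6b) to 0.901 (Ugt1a2 with Ugt1a1), with a median of 0.67. With each library set against its group mean, all 36 remained positive, from 0.33 to 0.897 (Ugt1a10 with Ugt1a6a). These correlations are a description, since the members share exons, a division of reads, library depth and the label conflict above. Outside the locus, genes whose level was among the most like the locus sum over the 16 libraries were Pacsin2 (a membrane-bending protein, r = 0.941), Pgrmc1 (a haem-binding membrane protein, 0.939), Gm5540 (0.932) and Rab11fip5 (a partner of the recycling factor Rab11, 0.926). Around the group means the 5 most alike were Aldh7a1 and Aldh1b1, both aldehyde dehydrogenases (0.982 and 0.959), Pgrmc1 (0.957), Fbp1 of gluconeogenesis (0.957) and Hadh of fatty acid oxidation (0.955).

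The lists of other genes in this and the following paragraphs were tested in the same fit. Their counts are read beside the shares of all genes called higher and lower by edgeR. These were 0.937% and 0.728% in untreated kidneys, 0.26% and 0.563% in B12-treated kidneys, and 0.862% and 2.16% averaged. Without the 2 libraries they were 4.68% and 3.89%, 1.12% and 1.68%, and 4.86% and 5.34%. DESeq2 called 4.52%, 2.19% and 3.22% of genes higher in the same 3 comparisons. At an unadjusted p below 0.05 by edgeR, 2366 of 25408 genes were higher and 2359 lower in untreated kidneys. These were 1980 and 2337 in B12-treated kidneys, and 2246 and 2674 averaged. Of 13 listed UGT2, UGT3 and UGT8 genes 11 were tested, and averaged over treatments 0 were called higher and 3 lower with diabetes by edgeR. In untreated kidneys 0 were called (1 higher and 5 lower at an unadjusted p below 0.05, 1 called lower by DESeq2). The 3 were Ugt2a3 (log2 fold change -1.19 ± 0.28, adjusted p = 0.0337), Ugt3a1 (-0.26 ± 0.05, adjusted p = 0.0216) and Ugt3a2 (-0.23 ± 0.06, adjusted p = 0.0437). Ugt2b38, the most abundant UGT2 gene of these kidneys by count, was at 59643 ± 6408 in ND_C and 48813 ± 6121 in D_C, and did not pass the test (-0.29 ± 0.09 in untreated kidneys, edgeR adjusted p = 0.0915).

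Among 9 genes listed for the route to UDP-glucuronic acid and for carriers of the Slc35 family, 1 was called higher and 0 lower in untreated kidneys by edgeR. It was Hk1, a hexokinase at the entry of glucose (0.50 ± 0.09, adjusted p = 0.0246). The 3 genes that define the route were not called. Ugdh, which oxidizes UDP-glucose to UDP-glucuronic acid, had 0.21 ± 0.11 (adjusted p = 0.332), Ugp2, which makes UDP-glucose, -0.06 ± 0.07 (adjusted p = 0.665), and Slc35d1, which carries UDP-glucuronic acid into the endoplasmic reticulum, 0.15 ± 0.09 (adjusted p = 0.403). Without the 2 libraries 2 of the 9 were called higher in untreated kidneys, Hk1 (0.57, adjusted p = 0.0014) and Ugdh (0.33, adjusted p = 0.0368, edgeR).

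Of 10 genes listed for glucuronide removal, glucuronate metabolism and related steps, 2 fell with diabetes in untreated kidneys and 0 rose by edgeR. The list mixed genes that remove glucuronides with genes that make or use glucuronate, so its count does not describe a single step. Gusb, the lysosomal enzyme that removes glucuronic acid, was at 2952, 4456, 3745 and 2705 in ND_C and at 1984, 1720, 2353 and 2264 in D_C, with no overlap (-0.74 ± 0.18, edgeR adjusted p = 0.0488). Miox, the proximal tubule enzyme that opens myo-inositol to glucuronate, was at 57304 to 70144 in ND_C and 35080 to 56954 in D_C, with no overlap (-0.56 ± 0.13, edgeR adjusted p = 0.0443). Between these groups 4.58% of all genes tested were lower in D_C with no overlap. In D_C the highest Miox library was D_C 1. Both genes also fell when averaged over treatments (Gusb -0.55 ± 0.13, adjusted p = 0.0301, and Miox -0.52 ± 0.09, adjusted p = 0.0121, edgeR). With D_C 1 and ND_B12 4 left out both fell in untreated kidneys (Gusb -0.72, adjusted p = 0.031, and Miox -0.72, adjusted p = 0.00211, edgeR).

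Of 11 transporters of glucuronides and organic anions, 1 rose in untreated kidneys by edgeR. It was Abcc1, an efflux pump of conjugates (0.40 ± 0.10, adjusted p = 0.0492). Abcc5, another member of that family, rose when averaged over treatments (0.23 ± 0.05, edgeR adjusted p = 0.0348). Slc22a8, the basolateral organic anion transporter OAT3, fell in B12-treated kidneys (-0.70 ± 0.15, edgeR adjusted p = 0.0437). Abcc2, the apical export pump of glucuronides, had 0.39 ± 0.14 in untreated kidneys and was not called (edgeR adjusted p = 0.138). It was called without the 2 libraries (0.54, edgeR adjusted p = 0.0076). Of the 4 genes that make bilirubin from haem, 0 were called in untreated kidneys by edgeR or DESeq2, and 0 had an unadjusted p below 0.05. In untreated kidneys Hmox1, which opens haem, had -0.13 ± 0.31 (adjusted p = 0.868) and Blvra, which reduces biliverdin to bilirubin, -0.09 ± 0.08 (adjusted p = 0.611).

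Of 18 tested genes for factors known to act on the locus, 0 were called in untreated kidneys by edgeR or DESeq2, with 2 higher and 2 lower at an unadjusted p below 0.05. There Ahr had 0.25 ± 0.10 (adjusted p = 0.188), Nfe2l2, which encodes Nrf2, -0.08 ± 0.09 (adjusted p = 0.726) and Nr1i3, which encodes CAR, -0.14 ± 0.22 (adjusted p = 0.785). Ppara was the factor called by edgeR with all libraries. It fell in B12-treated kidneys (-0.65 ± 0.09, edgeR adjusted p = 0.0169) and when averaged (-0.28 ± 0.07, adjusted p = 0.0346). In untreated kidneys it had 0.09 ± 0.09 (edgeR adjusted p = 0.668). DESeq2 called 2 factors lower and 0 higher in B12-treated kidneys, and the same numbers when averaged. In each of these comparisons 5 factors were lower and 0 higher at an unadjusted p below 0.05 (edgeR).

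Of 20 listed target genes of Nrf2, 1 was called in untreated kidneys by edgeR and 4 were called higher by DESeq2. There 8 were higher and 0 lower at an unadjusted p below 0.05 (edgeR). In B12-treated kidneys 0 were called by edgeR or DESeq2, with 3 higher and 0 lower at an unadjusted p below 0.05. Averaged over treatments, 16 of the 20 had a positive log2 fold change, and 3 rose and 0 fell by edgeR. They were Ephx1, the microsomal epoxide hydrolase (0.81 ± 0.18, adjusted p = 0.0266), Cbr3, a carbonyl reductase (0.82 ± 0.20, adjusted p = 0.0389), and the quinone reductase Nqo1 (0.43 ± 0.10, adjusted p = 0.0379). The median log2 fold change of the list was 0.23, against 0.01 over all genes. Without D_C 1 and ND_B12 4, 13 of the 20 rose and 0 fell, beside the 4.86% of all genes given above for that comparison. Ephx1 was at 2370, 1725, 1972 and 2617 in ND_C and at 3286, 6783, 5027 and 5128 in D_C, with no overlap, and rose in untreated kidneys (1.22 ± 0.25, edgeR adjusted p = 0.0349). Of all genes tested, 4.86% were higher in D_C than in ND_C with no overlap.

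Of 7 AhR targets, 0 were called in untreated kidneys by edgeR and 2 higher and 1 lower by DESeq2. Nqo1, which is also on the Nrf2 list, was the 1 called by edgeR when averaged, and Cyp1a1, the gene most specific to AhR, was low in all groups (33.9 to 134 normalized counts) and not called (0.25 ± 0.37 in untreated kidneys, edgeR adjusted p = 0.784). Of 7 CAR and PXR targets tested, Gstt1 fell in B12-treated kidneys (-0.52 ± 0.11, edgeR adjusted p = 0.0418), and Cyp2b10, the classic CAR target, was at 0.0 to 109 and not called (-1.08 ± 1.06, adjusted p = 0.647). Of 16 PPARalpha targets, 0 were called in untreated kidneys by edgeR or DESeq2, with 1 higher and 1 lower at an unadjusted p below 0.05. In B12-treated kidneys 0 of these targets were called by edgeR, and DESeq2 called 2 lower and 0 higher. At an unadjusted p below 0.05 by edgeR, 3 targets were lower and 0 higher there. Cyp4a14, the most responsive of them, was at 1437, 1005, 1196 and 13687 in ND_C and at 4394, 39676, 10861 and 7070 in D_C (1.83 ± 1.03, adjusted p = 0.362). D_C 2, which had the highest Ugt1a10 and locus sum, was also the highest for Cyp4a14. Without the 2 libraries, 2 of 7 AhR targets, 1 of 7 CAR and PXR targets and 1 of 16 PPARalpha targets were called higher in untreated kidneys by edgeR, and 4 of 16 PPARalpha targets were called higher and 1 lower when averaged. Beside these, 4.68% of all genes were called higher in untreated kidneys. When averaged, 4.86% of all genes were called higher and 5.34% lower.

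Markers of kidney tubule cells were abundant. The summed level of the 6 markers of proximal tubule S1 and S2, the site where the Ugt1a enzymes are best known, was 1025239 to 1099104 in untreated and 1054360 to 1209799 in treated non-diabetic kidneys, and 918807 to 1151732 and 950919 to 1034387 in diabetic ones. D_C 1 had the lowest value of the 16 libraries and ND_B12 4 the highest, as for Ugt1a7c. Averaged over treatments, 1 of the 6 (Slc34a1) was called lower with diabetes and 0 higher by edgeR. Some markers of other cells were also called in untreated kidneys. The 3 principal cell markers summed to 11590.0 to 15648 in ND_C and 17763 to 38618 in D_C, with 2 of 3 called higher, and the 4 B and plasma cell markers summed to 896 to 3391 in ND_C and 251 to 873 in D_C, with 1 of 4 called lower. In B12-treated kidneys 0 of 3 principal cell markers were called by edgeR or DESeq2 (0 at an unadjusted p below 0.05) and 1 of 4 B and plasma cell markers was called lower. The 4 endothelial markers summed to 15326 to 17193 in ND_C and 19100.0 to 22733 in D_C, with 0 called by edgeR, 4 higher at an unadjusted p below 0.05, 3 called higher by DESeq2 and 3 by edgeR without the 2 libraries. The 4 macrophage markers summed to 4747 to 5548 in ND_C and 3655 to 4805 in D_C, with 1 of 4 called lower when averaged and 3 without the 2 libraries. Among tissues that could adhere to a kidney, the 4 adrenal genes summed to 286 to 547. Of these Cyp11b1 and Cyp11b2 were at 0 and Cyp21a1 was under 10 in all libraries, so Star was most of the sum. Star, the 1 adrenal gene tested, was higher with diabetes in untreated kidneys at an unadjusted p below 0.05 and was not called (edgeR). The 5 hepatocyte genes, some of which kidney also expresses, summed to 5339.5 to 11464. The 4 enterocyte genes, of which 2 passed the count filter, summed to 12963 to 17044 with Sis under 10 in all. The 4 adipocyte genes varied from 2186 to 18890 without following the groups. Whether these sums came from kidney cells or from other tissue was not tested. The part of the marker differences in the Ugt1a values was not tested.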

How the data were processed

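Kidney total RNA (RNeasy, Watchmaker Total RNA) was sequenced as paired 50-base reads. The authors aligned the reads with STAR to GRCm39 (GENCODE vM35) and deposited gene and transcript tables of estimated counts from StringTie and prepDE, which hold whole numbers (bcl2fastq 2.20.0 per the labels). No column was left unused. Genes with 100 or more counts over all libraries (25408) were tested with edgeR 4.0.16 (R 4.3.3): TMM, quasi-likelihood test, 1 mean per labelled group, 16 libraries, 12 residual degrees of freedom, Benjamini-Hochberg adjustment. DESeq2 1.42.0 gave the size factors (median of ratios) behind the normalized counts and was an alternative test. SEs are the log2 fold change divided by the root of F. Correlations used log2 normalized counts, with 2 added for the locus sum and the genes compared with it. Alternatives were upper-quartile normalization, other count filters, library date, the replicate number as a block, the compared groups alone, transcript counts and each library left out. The scripts were tested on simulated data. Whether replicates are separate cages or litters is not given, so p-values measure the spread between these libraries.

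The members and lists were chosen with earlier results of these data known. All members were described. Pathway genes were named if called in any comparison (at most 4 per list), or as defining genes. For the label check, the group means of the study's supplement were compared with mean normalized counts. Some genes that the naming rule selects are not reported here.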

Additional observations from a re-analysis of the deposited data

Results flagged for a closer look

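Of 40 sets of 4 libraries (10 series of values, the members and the locus sum, in 4 groups), 5 held a library whose gap to the next was past Dixon's 95% critical share of the group's range, which chance gives in about 1 in 20. ND_B12 4 stood apart for Ugt1a10 (3231, against 550.3 to 907 in the other ND_B12 libraries) and for Ugt1a6a (2188, against 1288 to 1349). D_B12 3 stood apart for Ugt1a10 (6373, against 1471 to 2022). ND_C 1 was the high library for Ugt1a8 (720.2, against 433 to 446). D_B12 4 was low for Ugt1a5 (143, against 548 to 585), while its Ugt1a2 and Ugt1a1 were near those of the other D_B12 libraries.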

How the results depend on the processing

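Values are given with all libraries first, and "both libraries" are D_C 1 and ND_B12 4. The shares of all genes called also changed with the setting, as given above and at the end of this section. The counts of members and pathway genes are therefore a description, and their changes are not read as results about these genes. For diabetes in untreated kidneys, 2 members called became 4 with DESeq2, 0 without the count filter, 0 with the library date as a covariate, 0 with the replicate block, 1 with the compared groups alone, 7 without both libraries, 0 for transcript counts and 0 to 7 without single libraries. For diabetes in B12-treated kidneys, 0 members called became 1 with DESeq2, 3 without both libraries and 0 to 1 without single libraries. For diabetes averaged over treatments, 3 members called became 5 with DESeq2, 0 with the library date as a covariate, 7 without both libraries, 0 for transcript counts and 1 to 6 without single libraries. For diabetes in untreated kidneys, 5 pathway genes called became 11 with DESeq2, 1 without the count filter, 0 with the library date as a covariate, 2 with the replicate block, 1 with the compared groups alone, 22 without both libraries and 0 to 18 without single libraries. For diabetes in B12-treated kidneys, 3 pathway genes called became 12 with DESeq2, 1 with upper-quartile normalization, 1 without the count filter, 0 with the library date as a covariate, 1 with the replicate block, 6 with the compared groups alone, 9 without both libraries and 0 to 6 without single libraries. For B12 in diabetic kidneys, 0 pathway genes called became 3 with DESeq2, 1 with the library date as a covariate, 1 without both libraries and 0 to 1 without single libraries. For the interaction, 0 pathway genes called became 7 with DESeq2, 6 with the library date as a covariate, 2 with the replicate block, 1 without both libraries and 0 to 2 without single libraries. For diabetes averaged over treatments, 10 pathway genes called became 18 with DESeq2, 4 without the count filter, 0 with the library date as a covariate, 4 with the replicate block, 36 without both libraries and 1 to 27 without single libraries. The locus sum for diabetes in B12-treated kidneys was -0.18 with the library date as a covariate. Without single libraries its log2 fold changes ran from 0.19 to 0.41 for diabetes in untreated kidneys, from -0.0555 to 0.15 for diabetes in B12-treated kidneys, from 0.12 to 0.28 for B12 in non-diabetic kidneys, from -0.13 to 0.10 for B12 in diabetic kidneys, from -0.36 to -0.13 for the interaction and from 0.12 to 0.23 for diabetes averaged over treatments. Log2 fold changes changed sign with the library date as a covariate for diabetes in untreated kidneys Ugt1a6b (-0.0856) and Ugt1a8 (-0.0231), for diabetes in B12-treated kidneys Ugt1a6b (-0.39) and Ugt1a9 (-0.21), for B12 in non-diabetic kidneys Ugt1a6a (-0.0056) and Ugt1a6b (-0.11), for B12 in diabetic kidneys Ugt1a6a (-0.15), Ugt1a6b (-0.42) and Ugt1a7c (-0.12), for the interaction Ugt1a6a (-0.14) and Ugt1a6b (-0.30), for diabetes averaged over treatments Ugt1a6b (-0.24) and Ugt1a7c (-0.10). Log2 fold changes changed sign without both libraries for diabetes in B12-treated kidneys Ugt1a7c (0.0337) and Ugt1a8 (0.0082), for B12 in non-diabetic kidneys Ugt1a6a (-0.15), Ugt1a6b (-0.0737) and Ugt1a8 (-0.0749), for B12 in diabetic kidneys Ugt1a6a (-0.0345) and Ugt1a7c (-0.0613), for diabetes averaged over treatments Ugt1a8 (0.0855). Without single libraries they changed sign for diabetes in untreated kidneys Ugt1a8 (-0.0457 to 0.29), for diabetes in B12-treated kidneys Ugt1a7c (-0.12 to 0.0302) and Ugt1a8 (-0.34 to 0.0049), for B12 in non-diabetic kidneys Ugt1a6a (-0.14 to 0.16), Ugt1a6b (-0.0719 to 0.23) and Ugt1a8 (-0.0721 to 0.27), for B12 in diabetic kidneys Ugt1a1 (-0.35 to 0.40), Ugt1a2 (-0.43 to 0.33), Ugt1a6a (-0.0212 to 0.31), Ugt1a7c (-0.0587 to 0.0721), Ugt1a9 (-0.63 to 0.13) and Ugt1a10 (-1.33 to 0.57), for the interaction Ugt1a5 (-0.90 to 0.11), Ugt1a6a (-0.10 to 0.29) and Ugt1a6b (-0.0227 to 0.34), for diabetes averaged over treatments Ugt1a8 (-0.13 to 0.0841). The causes of these changes were not tested.

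Same-numbered libraries of different groups did not deviate together (24 pairs, r from -0.183 to 0.168, median -0.0057, against -0.186 to 0.250 in 72 other pairs), so the numbers were not taken as pairs, and the replicate block above stands as an alternative only. Group mean shares of the locus kept within 1 SD when computed from counts or to a common transcript end, except for Ugt1a6a in D_B12. The common end was chosen after seeing the data. The share of Ugt1a6a in D_B12 was 3.42% ± 0.037 (SD, n = 4) per length, 3.24% to a common end and 3.54% from counts. Depth was 65271308 counts or more per library. Beside the averaged counts of members, 3.22% of genes were called higher with DESeq2 and 0.0% with the library date as a covariate. Without single libraries 0.175% to 2.98% were called higher averaged, 0.0% to 0.723% in B12-treated and 0.0% to 3.22% in untreated kidneys. With the compared groups alone 0.628% were called higher in untreated kidneys. With the library date as a covariate 0.445% were called higher for B12 in diabetic kidneys and 1.35% for the interaction.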
